A study of Homo sapiens with 6 samples.

Results

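Genes whose symbol is ZNF followed by a number were followed in SW1353 cells, a human chondrosarcoma line often used in place of chondrocytes, after exposure to interleukin-1 alpha (IL-1). The array annotation held 453 such genes, and 200 of them were kept because 1 of their probes had a detection p under 0.01, called well above background here, on at least 3 of 6 arrays. These 200 members were part of 9078 genes kept by the same filter. The remaining 253 ZNF genes were left out, except where the filter was varied or its edge examined. Where a gene had several such probes, the one with the highest mean stood for it. The rule uses the symbol and detection and sets no threshold on the size of the response. Detection can still follow the response: 6 members passed through control arrays alone and 0 through IL-1 arrays alone. The family was also picked with earlier results of these data known.

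ZNF is a root symbol for proteins with zinc fingers, short loops held in shape by a zinc ion. In the most common kind, 2 cysteines and 2 histidines hold the zinc, and strings of such fingers read DNA sequence. Many members also carry a KRAB domain, which recruits the co-repressor TRIM28 and through it histone methylation by SETDB1, and many of these silence transposable elements. A large share of the family lies in clusters of tandem copies on chromosome 19. Other members have no KRAB domain and serve as activators, as RNA-binding proteins or as ubiquitin ligases.

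Cultures were deprived of serum for about 20 h and then were left untreated or given IL-1 (0.5 ng/ml) for a further 6 h, and 3 samples of each kind were each hybridised to 1 Illumina bead array. All samples came from this single line, and all were serum-starved, controls included. No label states that the samples were separate cultures, so p-values reflect only how far these samples spread, possibly for technical reasons. The titles are of 2 kinds, whose meaning the labels do not give: Allstars (replicates 1 and 2 of each group) and Sample (replicate 3 of each group). In bulk RNA such as this, fewer cells holding a transcript and less transcript per cell cannot be told apart.

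The arrays had from 11954 to 13357 probes above background. Of 7 cartilage markers 5, among them COL2A1 and ACAN, were at background on all arrays, while SOX9 and COL11A1 were measured. SOX9 fell by 0.94 ± 0.18 (limma adjusted p = 0.0186). All 5 mesenchymal markers were measured, 4 of 5 leukocyte markers were at background, CD68 being the exception, and so were 2 of 3 endothelial markers, VWF being the exception. Of 3 epithelial markers, KRT8 was well above background on all 6 arrays, CDH1 was at background on all arrays, and EPCAM did not pass the filter. With the kind of title as a block (a term of its own in the fit), COL1A2 fell by 0.44 ± 0.07 and VWF by 0.62 ± 0.18, and CD68 rose by 0.28 ± 0.07 (limma adjusted p = 0.000198, 0.0146 and 0.0106). The part of these markers in the members' values was not tested. The treatment registered: the chemokine gene CXCL8 rose by 7.76 ± 0.19 and the NF-kB inhibitor gene NFKBIA by 2.98 ± 0.20 (log2 fold change ± SE, limma, 3 arrays per group). Of the 9078 genes, 4309 (47.5%) differed between the 2 kinds of title, and so did 71 of the 200 members (35.5%), 57 of them lower on the Sample arrays.

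The ZNF members mostly lay lower after IL-1, by small amounts, and few rose. The fitted log2 fold change passed 1, in either direction, in 2 members, ZNF629 and ZNF704, and for ZNF629 it rests on IL-1 signals that were not well above background. Among the other genes 1.55% passed 1 downward and 5.33% upward. Without a block 9 members fell and 0 rose, and with the kind of title as a block 57 fell and 4 rose (limma, Benjamini-Hochberg adjusted p under 0.05 over 9078 genes). Among all genes tested, 2.94% fell and 6.08% rose without the block, and 22.2% fell and 13.0% rose with it. The members' own shares were 4.5% and 0% without the block, and 28.5% and 2% with it. At an unadjusted p under 0.05 without the block, 35 members were lower and 2 higher, beside 12.3% and 9.88% of all genes.

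Control and IL-1 arrays are equal in number within each kind of title, so the block leaves the fold changes as they are and removes only the difference between the kinds from the error. The 9 members called without it were all called with it. With the replicate number as the block, 61 members fell and 4 rose, beside 23.2% and 13.4% of all genes. On the Allstars arrays alone 40 fell and 4 rose, beside 16.9% and 11.5% of all genes. The count of 9 without a block depended on single arrays: it was 1 without control replicate 1, control replicate 2 or IL-1 replicate 1, 2 without IL-1 replicate 2, 7 without IL-1 replicate 3 and 9 without control replicate 3. With the kind of title as a block and 1 Allstars array left out, the number of members that fell lay between 29 and 52, the 2 lowest being 29 without control replicate 2 and 31 without control replicate 1. All 9 were called in each of those 4 fits.

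ZNF629 came to background after IL-1. In replicate order its normalized log2 signal was 7.87, 6.87 and 7.01 without IL-1, and it was 4.61, 5.76 and 5.71 with it. All IL-1 values lay below all control values, and no IL-1 array was well above background. ZNF629 therefore fell at least 2.22-fold, with the IL-1 values raised to the lowest signal well above background on their arrays (limma adjusted p = 0.0255, and 0.000599 with the kind of title as a block). Since it passed the filter through its control arrays alone, some difference was built in. The fitted value of -1.89 became -0.95 without background correction and -0.89 in the authors' deposited log2 values.

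ZNF704, whose protein is related to that of ZNF395, gave the most stable fall. Signals were 9.13, 9.35 and 8.64 in controls and 7.76, 7.38 and 7.31 after IL-1, all 6 well above background. The highest IL-1 array lay clearly under the lowest control array. The log2 fold change was -1.56 ± 0.22, a 2.94-fold fall (limma, adjusted p of 0.00413 alone and of 3.65e-07 when blocked), and it kept an adjusted p under 0.05 in all 6 fits without 1 array. Another ZNF704 probe differed by -0.94. ZNF395, also known as papillomavirus binding factor, ran from 10.02, 10.06 and 9.63 in controls to 9.43, 9.47 and 9.04 after IL-1. Its log2 fold change was -0.59 ± 0.18, with the SE of the fit without the block. It passed with the block (limma adjusted p = 7.27e-05) and not without it (limma adjusted p = 0.101), and the groups did not overlap.

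ZNF362, a relative of the DNA-binding factor ZNF384, fell by 0.88 ± 0.19 on the log2 scale. Its control signals of 7.90, 7.50 and 7.81 stood apart from 6.94, 6.62 and 7.00 after IL-1 (limma adjusted p = 0.0279). ZNF365, known for a part in genome stability, went from 9.15, 9.11 and 8.80 to 8.21, 8.14 and 8.39. That is a fall by 0.77 ± 0.16 (limma adjusted p = 0.0221), with no overlap between groups. ZNF146, also called OZF, consists of zinc fingers with no known effector domain. It was at 10.07, 10.11 and 9.85 in controls and at 9.45, 9.48 and 9.43 after IL-1, a fall by 0.56 ± 0.13 (limma adjusted p = 0.0382).

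ZNF425, ZNF615, ZNF581 and ZNF329 completed the 9. ZNF425 measured 7.32, 7.07 and 7.02 in controls and 6.40, 5.83 and 6.27 after IL-1, a log2 fold change of -0.97 ± 0.22, with 2 of 3 IL-1 arrays well above background. ZNF615 measured 7.61, 7.87 and 7.30 against 6.72, 6.94 and 6.72, a change of -0.80 ± 0.20. ZNF581 measured 9.95, 10.15 and 9.68 against 9.40, 9.24 and 8.99, a change of -0.71 ± 0.18. The groups stayed apart in all 3. For ZNF329 the controls lay close together at 9.17, 9.23 and 9.18 and the IL-1 arrays at 8.41, 8.76 and 8.48, a change of -0.64 ± 0.15. The limma adjusted p of these 4 lay between 0.0346 for ZNF329 and 0.0479 for ZNF615, and with the block between 3.45e-05 for ZNF581 and 0.00223 for ZNF425. Apart from ZNF704, the called members kept an adjusted p under 0.05 in 1 or 2 of the 6 fits without 1 array and no block.

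ZNF250 completed the 10 named members that fell and was called with the block alone. It measured 6.26, 6.42 and 6.50 in controls and 5.62, 5.16 and 5.66 after IL-1, where no array was well above background, so that it fell at least 1.22-fold (limma adjusted p = 0.0149 with the block and 0.0611 without). It too passed the filter through its controls alone. ZNF827 was singled out after its values were seen, because the kinds of title differ most in it. Its signals were 9.01, 9.31 and 7.03 in controls and 8.15, 8.20 and 6.31 after IL-1. The Sample arrays were lower by 2.00 in both groups together, and the IL-1 arrays were lower within each kind, by 0.99 (Allstars) and 0.73 (Sample). The limma adjusted p was 0.532 without the block and 5.36e-05 with it. Of the 57 members that fell with the block, 54 were well above background on at least 1 IL-1 array, and their log2 fold changes ran from -1.56 to -0.27 with a median of -0.55. The other 3 were ZNF629, ZNF250 and, named after its values were seen, ZNF385B, which fell at least 1.44-fold. All 3 passed the filter through their control arrays alone, so some difference was built in.

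**Figure D1:**
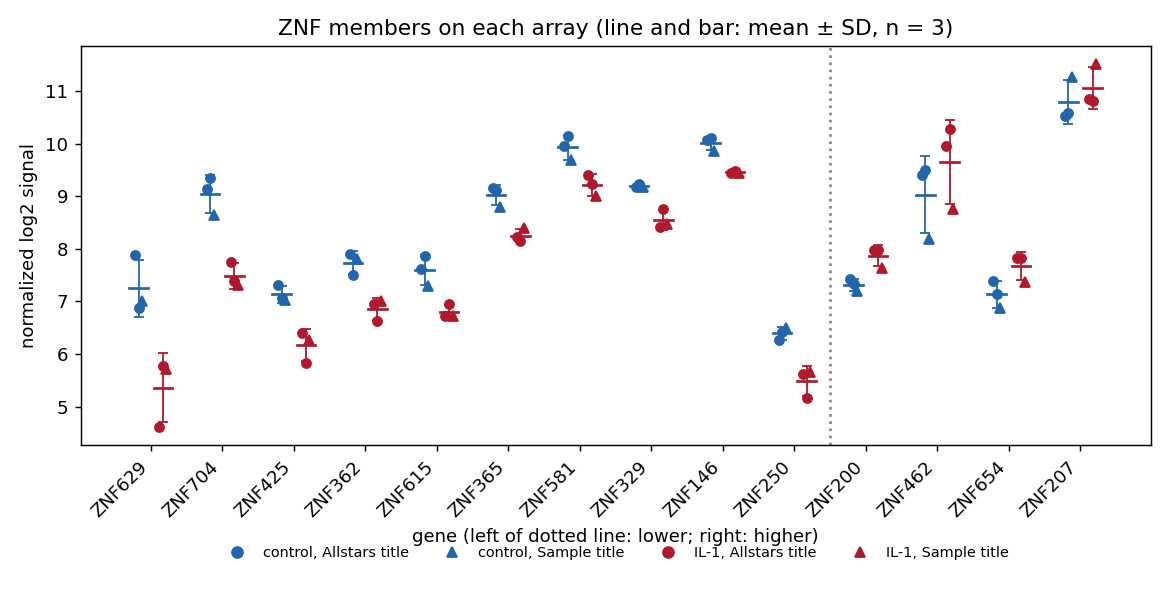
Normalized log2 signal (vertical axis) of 14 ZNF members on each array, control in blue and IL-1 in red, circles for Allstars and triangles for Sample titles, with the mean and SD of 3 arrays. For the 10 genes left of the dotted line all IL-1 points lie below all control points, whereas in ZNF462, ZNF654 and ZNF207 on the right the groups overlap.

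The 4 members that rose with the block were ZNF200, ZNF462, ZNF654 and ZNF207. ZNF200 measured 7.42, 7.34 and 7.19 in controls and 7.98, 7.98 and 7.64 after IL-1, with no overlap, and rose by 0.55 ± 0.12 (limma adjusted p = 0.00332 with the block and 0.0983 without). Another ZNF200 probe differed by 0.48. ZNF462, a large zinc finger protein needed in nervous system development, measured 9.41, 9.49 and 8.19 in controls against 9.95, 10.27 and 8.75, so that the groups overlapped while each kind of title showed a higher IL-1 signal. It rose by 0.63 ± 0.10 with the block (limma adjusted p = 0.000250, and 0.514 without).

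ZNF462 and ZNF654 were named after their values were seen, to complete the members that rose. ZNF654 measured 7.38, 7.13 and 6.88 in controls and 7.83, 7.82 and 7.37 after IL-1, and the groups overlapped slightly. It rose by 0.54 ± 0.13 with the block (limma adjusted p = 0.00645, and 0.182 without), but its 3 other probes differed by 0.07, 0.17 and 0.63. ZNF207, also called BuGZ, a spindle protein that stabilises the checkpoint factor BUB3, measured 10.53, 10.58 and 11.27 against 10.85, 10.81 and 11.51. It rose by 0.26 ± 0.07 with the block (limma adjusted p = 0.0125, and 0.636 without).

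Over all 200 members the median log2 fold change was -0.23, beside -0.10 for the 8878 other genes. Of the members 159 (79.5%) lay below 0, against 65.1% of the other genes. The middle of the members ran from -0.49 (lower quartile) to -0.04 (upper quartile), and that of the other genes from -0.29 to 0.10. Not 1 member passed a log2 fold change of 1 upward, where 5.33% of the other genes did. Downward 2 of the 200 members passed 1, beside 1.55% of the other genes, so large falls were not more common among the members. The difference between the 2 medians was -0.13, and it was -0.06 both without background correction and in the authors' deposited log2 values, and -0.15 when only the array medians were made equal. No test of the family as a whole was made.

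**Figure D2:**
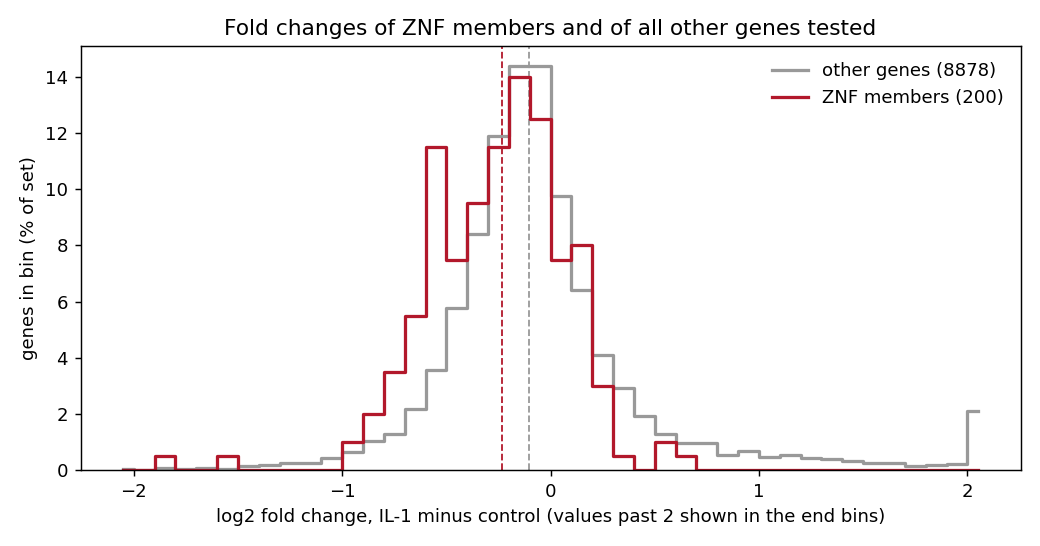
Share of genes (vertical axis, percent of each set) in bins of log2 fold change (horizontal axis) for the 200 ZNF members in red and the 8878 other genes in grey, with dashed lines at the medians of -0.23 and -0.10. The ZNF curve lies to the left and lacks the long tail of higher genes.

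The filter on detection bears on these counts. On all 6 arrays 159 members were well above background, and 41 on 3 to 5 arrays. Controls showed 200, 194 and 194 of the members above background, whereas IL-1 samples showed 181, 168 and 183. Over all probes of the arrays the numbers were 13030, 12650 and 13357 in controls and 12603, 11954 and 13070 after IL-1. Detection was thus lower on the IL-1 arrays beyond the members as well. Of the members 6 were detected on no IL-1 array and 0 on no control array. The matching counts over all 9078 genes are not given here, so these counts do not set the members apart from other genes. Of the 159 members detected everywhere, 121 lay below 0, with a median of -0.18 beside -0.10 for the 7574 other genes detected everywhere. With the block 48 of them fell and 4 rose, which is 30.2% and 2.52%, beside 23.1% and 12.6% of those other genes. The 14 members just inside the filter (3 arrays) had a median of -0.30, from -1.89 (ZNF629) to 0.23. The 21 ZNF genes just outside it (2 arrays) had a median of -0.34, from -1.02 to 0.60.

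The difference was also set out by signal strength. When all 9078 genes were split into 4 equal bands by mean log2 signal, 84 members fell into the dimmest band and 10 into the brightest. In the dimmest band the members' median was -0.31 beside -0.13 for the other genes, in the next band -0.18 beside -0.09, and in the third -0.25 beside -0.10. In the brightest band it was -0.01 beside -0.10. Members thus lay under the other genes in 3 of the 4 bands and above them in the brightest, which held 10 members. With the block, from the dimmest band to the brightest, 23.8%, 30.1%, 42.4% and 10% of the members fell. Of the other genes 13.0%, 20.8%, 26.8% and 27.3% fell in that order. The part of signal strength in the result was not tested further.

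Both kinds of title showed the lower level. The median log2 difference of the members was -0.24 on the Allstars arrays and -0.20 on the Sample arrays, beside -0.11 and -0.10 for the other genes. In both kinds 127 members (63.5%) were lower, beside 50.8% of the other genes, 26 were higher in both, and 47 went opposite ways. Non-overlapping groups were seen in 43 members with all IL-1 arrays below all control arrays (21.5%, beside 17.1% of all genes) and in 4 with all above (2%, beside 11.0%). In the interaction fit, 0 of 200 members and 0 of 9078 genes (0.00%) differed in response between the kinds (limma adjusted p under 0.05), and 3 members did at an unadjusted p under 0.05, which is 1.5%, beside 6.08% of all genes.

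**Figure D3:**
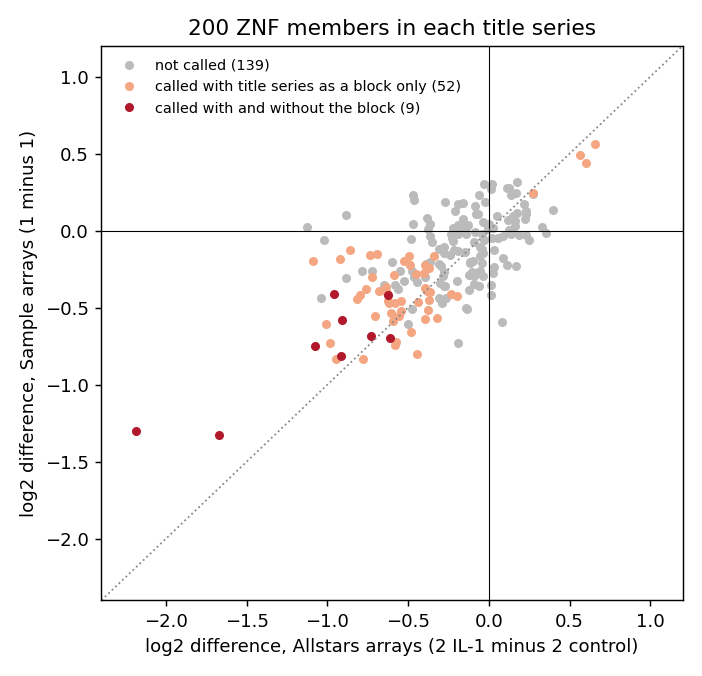
Log2 difference between IL-1 and control on the Sample arrays (vertical axis, 1 array against 1) against that on the Allstars arrays (horizontal axis, 2 against 2) for the 200 ZNF members, with equal values on the dotted line. The 9 members called with and without the block (dark red) lie to the lower left, and the 4 that rose with the block in the upper right.

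Chromosome 19 held 86 of the 200 members, by the RefSeq annotation. Their median log2 fold change was -0.28, and 28 of them (32.6%) fell and 0 rose with the block. The 491 other genes of chromosome 19 had a median of -0.09, and 16.1% of them fell and 11.2% rose. The 114 members on other chromosomes had a median of -0.23, and 29 (25.4%) fell and 4 rose. All 4 members that rose thus lay outside chromosome 19.

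Along chromosome 19 the members were not alike. A split at the widest gap between members, chosen after the values were seen, left 25 members from ZNF557 to ZNF681 on one side and 61 from ZNF302 to ZNF446 on the other. The 25 had a median of -0.13, and 4 (16%) fell with the block. The 61 had a median of -0.34, and 24 (39.3%) fell. The other genes of the same stretches had medians of -0.12 and -0.07, with 18.1% and 13.9% falling. On the first side 9 of 25 lay above 0, among them ZNF93, which silences LINE-1 elements, at 0.23 ± 0.17, and on the other side 7 of 61 did.

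Neighbouring copies were set side by side, without a test of the difference between them. In the run ZNF649, ZNF613, ZNF350, ZNF615, ZNF614 and ZNF432, which follow one another with no other protein-coding gene between them, ZNF615 fell while its neighbours ZNF350 (-0.07 ± 0.24) and ZNF614 (0.05 ± 0.20) did not pass. ZNF614 measured 7.45, 7.36 and 7.71 in controls and 7.39, 7.37 and 7.89 after IL-1, with the groups overlapping. ZNF613 measured 7.94, 7.83 and 7.75 against 8.03, 7.97 and 8.03, and ZNF649 measured 6.19, 6.23 and 6.14 against 5.09, 5.57 and 5.83 (limma, adjusted p = 0.176 unblocked and 0.0709 blocked), where no IL-1 array was well above background. In ZNF613 all IL-1 arrays lay above all control arrays by a small margin, and it did not pass (limma, adjusted p = 0.566 unblocked and 0.271 blocked). The genes of this run, ZNF615 and ZNF350 apart, were named after their values were seen. Over the 34 pairs of members that are next to each other, the median absolute difference in log2 fold change was 0.28, and over all 19900 pairs of members it was 0.30. With the block both genes fell in 3 of the 34 pairs, 1 of the pair was called in 18 and neither in 13. Over all members 30.5% were called with the block. Zinc finger genes of a cluster share sequence, and whether a probe of 1 also reads its neighbour was not tested.

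**Figure D4:**
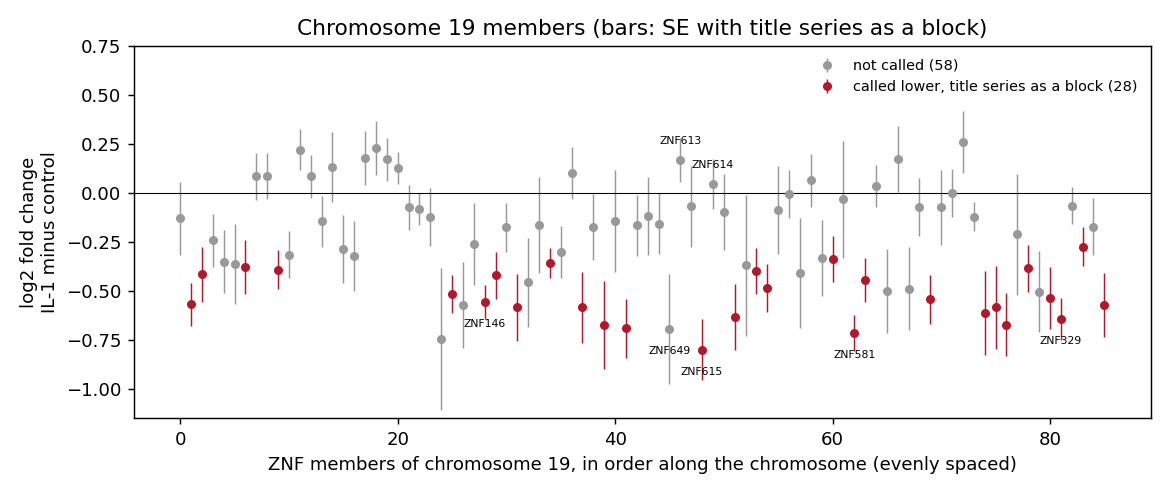
Log2 fold change (vertical axis) of the 86 ZNF members of chromosome 19 in their order along it (horizontal axis, evenly spaced), with bars for the SE of the fit with the kind of title as a block. The 28 members that fell (red) lie among members that did not pass (grey), and ZNF615 lies below the nearby ZNF613 and ZNF614.

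Start regions were set beside these responses, each 300 bases long, from 250 before to 50 after the annotated start, from RefSeq (GRCh38.p14), where 171 of the 200 members matched. The sequences chosen are those of ZNF629 and ZNF362, which fell, the neighbours ZNF615 and ZNF614, of which the former fell, and ZNF616 and ZNF274, which like ZNF362 carry the ETS core described next. They lie at chr16:30787156-30787455, minus strand, chr1:33256242-33256541, plus strand, chr19:52008162-52008461, minus strand, chr19:52028330-52028629, minus strand, chr19:52139889-52140188, minus strand and chr19:58182811-58183110, plus strand. Capitals mark matches to any of the motifs searched, on either strand.
ZNF629: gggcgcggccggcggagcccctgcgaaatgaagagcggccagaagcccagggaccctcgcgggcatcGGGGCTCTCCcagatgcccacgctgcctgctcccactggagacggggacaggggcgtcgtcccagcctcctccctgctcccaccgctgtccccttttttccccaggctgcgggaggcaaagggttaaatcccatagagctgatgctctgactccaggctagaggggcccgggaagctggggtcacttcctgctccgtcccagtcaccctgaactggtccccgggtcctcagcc
ZNF362: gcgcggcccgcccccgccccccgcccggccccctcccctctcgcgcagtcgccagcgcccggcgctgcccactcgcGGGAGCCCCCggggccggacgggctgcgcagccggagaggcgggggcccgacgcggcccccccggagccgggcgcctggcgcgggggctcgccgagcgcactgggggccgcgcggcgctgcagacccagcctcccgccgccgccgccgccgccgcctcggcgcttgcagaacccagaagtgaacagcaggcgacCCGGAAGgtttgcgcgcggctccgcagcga
ZNF615: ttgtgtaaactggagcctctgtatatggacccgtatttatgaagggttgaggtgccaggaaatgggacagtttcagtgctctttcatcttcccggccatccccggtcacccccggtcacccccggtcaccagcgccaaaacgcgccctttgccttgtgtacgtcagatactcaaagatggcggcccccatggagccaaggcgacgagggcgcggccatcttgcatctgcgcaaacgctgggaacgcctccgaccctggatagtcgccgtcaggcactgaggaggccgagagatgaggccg
ZNF614: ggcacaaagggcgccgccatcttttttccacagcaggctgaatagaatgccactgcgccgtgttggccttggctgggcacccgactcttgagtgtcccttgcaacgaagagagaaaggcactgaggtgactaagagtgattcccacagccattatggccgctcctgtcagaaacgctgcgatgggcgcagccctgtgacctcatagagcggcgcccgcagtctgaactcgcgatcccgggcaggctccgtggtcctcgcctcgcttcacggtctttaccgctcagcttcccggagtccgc
ZNF616: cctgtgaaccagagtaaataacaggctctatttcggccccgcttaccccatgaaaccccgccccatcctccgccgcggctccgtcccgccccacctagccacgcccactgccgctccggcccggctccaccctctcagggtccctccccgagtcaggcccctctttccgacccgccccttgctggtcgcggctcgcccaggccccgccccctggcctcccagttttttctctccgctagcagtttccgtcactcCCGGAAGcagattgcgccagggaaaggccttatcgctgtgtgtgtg
ZNF274: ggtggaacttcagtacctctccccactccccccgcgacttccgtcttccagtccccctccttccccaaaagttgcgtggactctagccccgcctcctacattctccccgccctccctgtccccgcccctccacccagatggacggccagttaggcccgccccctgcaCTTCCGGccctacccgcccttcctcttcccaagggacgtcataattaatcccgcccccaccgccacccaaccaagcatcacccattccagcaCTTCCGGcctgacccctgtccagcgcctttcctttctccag

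A set of 5 motifs were searched on both strands: CCGGAAG, the core read by ETS factors, an NRF1-like motif of GCGC repeated after any pair of bases, TGANTCA, the AP-1 site, an interferon-response-like motif of GAAA repeated after any pair of bases, and the kB motif of NF-kB by its consensus. CCGGAAG occurred in 70 of 171 member promoters (40.9%), beside 10.7% of all 27305 promoters of that length and 19.6% of the 7381 promoters of other genes tested. Matches of the kB motif were in 19 (11.1%), beside 10.8% of all promoters and 12.7% of those of other genes tested. TGANTCA was in 10 (5.85%), beside 7.76% and 4.59% in that order. The repeated GAAA was in 3 (1.75%), beside 3.65% and 2.97%, and the repeated GCGC in 27 (15.8%), beside 8.78% and 16.8%. The member promoters had a median of 23 CG dinucleotides, beside 14 over all promoters and 27 over other genes tested. The motifs may overlap each other where letters are shared, and were chosen with the fold changes known.

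The response was set against the ETS core as a description. The 70 members with CCGGAAG had a median log2 fold change of -0.15, and 13 (18.6%) fell and 0 rose with the block. The 101 without it had a median of -0.25, and 33 (32.7%) fell and 2 rose. Among all genes tested, 22.2% fell and 13.0% rose with the block. Whether the 2 sets of members differ was not tested. Of the promoters printed, those of ZNF362 and ZNF616 hold 1 match each and that of ZNF274 holds 2. ZNF616 measured 7.36, 7.25 and 6.96 in controls and 6.61, 6.47 and 6.59 after IL-1 and fell by 0.63 ± 0.17 with the block (limma adjusted p = 0.00974, and 0.0840 without). ZNF274, which recruits SETDB1 to chromatin, measured 9.82, 9.94 and 9.73 against 9.98, 9.70 and 9.61 and did not pass (limma adjusted p = 0.860, and 0.622 with the block). Its log2 fold change was -0.07, and that of its other kept probe was 0.17, opposite in sign. A match is a run of letters, not a site shown to be bound.

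By known role, the KRAB-free DNA-binding regulators gave 13 measured members of 17. Of these 2 fell without the block, ZNF704 and ZNF362, and with it 5 fell and 1, ZNF462, rose, and the median was -0.13. Among all genes 2.94% fell and 6.08% rose without the block, and 22.2% and 13.0% with it. The others to fall with the block were ZNF395, ZNF521 and ZNF148. ZNF521 overlapped between groups and fell by 0.64 ± 0.19 (limma adjusted p = 0.0184 with the block, and 0.368 without). ZNF148, also called ZBP-89, measured 10.06, 10.19 and 9.27 in controls and 9.67, 9.89 and 9.11 after IL-1, overlapping, and fell by 0.28 ± 0.09 with the block (limma adjusted p = 0.0311, and 0.657 without). ZNF143, an activator at many promoters, differed by -0.10 ± 0.21, ZNF281, a factor of stem cell and mesenchymal programmes, by -0.13 ± 0.17, and ZNF217, which is amplified in breast cancer, by 0.20 ± 0.19. None of these 3 passed with the block either (limma adjusted p between 0.211 and 0.657). ZNF703 was at background on all arrays and was not tested.

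Members that act on RNA, ribosomes, ubiquitin or SUMO gave 7 measured of 10 listed, with 0 called without the block (limma, and 0 at an unadjusted p under 0.05). Among all genes tested, 2.94% fell and 6.08% rose without the block. With it ZNF207 rose and ZNF830 fell, beside 13.0% of all genes that rose and 22.2% that fell, and the list median was -0.04. ZNF598, the ubiquitin ligase of collided ribosomes, differed by -0.16 ± 0.18, and its other kept probe by 0.08. ZNF622, which acts in maturation of the large ribosomal subunit, differed by -0.04 ± 0.11, and ZNF451, a SUMO ligase, by -0.23 ± 0.21. None of these 3 passed with or without the block.

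Of the SCAN-domain members, which pair through that domain, 7 of 12 were measured, with 0 called without the block (limma, 1 lower at an unadjusted p under 0.05). ZNF446 fell with it, by 0.57 ± 0.16 (limma adjusted p = 0.0147), beside 22.2% of all genes that fell. ZNF24, well above background on 1 of 3 IL-1 arrays, differed by -0.23 ± 0.34, ZNF263 by -0.09 ± 0.15 and ZNF394, a repressor of MAP kinase signalling to transcription, by 0.02 ± 0.16, none of them called. The other kept ZNF394 probe differed by 0.31. Silencers of repeats and imprinted loci gave 5 measured of 6, of which 0 were called with or without the block (limma, 0 at an unadjusted p under 0.05 without it). Among all genes tested, 2.94% fell and 6.08% rose without the block, and 22.2% fell and 13.0% rose with it. At an unadjusted p under 0.05 without the block, 12.3% were lower and 9.88% higher (limma). With 5 genes, 0 calls do not set the silencers apart. ZNF91, which represses SVA elements, differed by -0.12 ± 0.21, ZNF93 by 0.23 ± 0.17 and ZNF350, a partner of BRCA1, by -0.07 ± 0.24. ZNF267 was at background on all arrays and was not tested.

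The machinery that KRAB zinc finger proteins recruit showed 16 measured genes of 19, with 0 called without the block (limma, 1 lower at an unadjusted p under 0.05) and 2 that fell with it. These were CHD4, a nucleosome remodeller, by 0.41 (limma adjusted p = 0.00156 with the block) and MPHOSPH8, a HUSH complex subunit, by 0.38 (limma adjusted p = 0.0285 with the block). With the block TRIM28 differed by -0.14 ± 0.10 (limma adjusted p = 0.288) and SETDB1 by -0.25 ± 0.13 (limma adjusted p = 0.153). The list median was -0.18, beside -0.10 for the genes that are not ZNF members. Of the list 14 of 16 lay below 0, beside 65.1% of the genes that are not ZNF members. Among all genes tested, 22.2% fell and 13.0% rose with the block, and 2.94% fell and 6.08% rose without it. At an unadjusted p under 0.05 without the block, 12.3% of all genes were lower (limma).

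Zinc finger genes under other root symbols had medians below 0: -0.27 for 22 ZBTB genes, -0.26 for 10 ZKSCAN and ZSCAN genes and -0.43 for 7 ZFP genes, beside -0.10 over the genes that are not ZNF members. Below 0 lay 15 of the 22 ZBTB genes, 6 of the 10 ZKSCAN and ZSCAN genes and 6 of the 7 ZFP genes. Of the genes that are not ZNF members 65.1% did, so the ZBTB, ZKSCAN and ZSCAN genes were close to that share. Without the block ZBTB4 fell by 0.54 ± 0.12 (limma adjusted p = 0.0338). ZSCAN31 was called as well (limma adjusted p = 0.0411), but no IL-1 array was well above background and its controls lay so near background that no fold is given. Without the block 0 of the ZFP genes were called (limma, 3 lower at an unadjusted p under 0.05). Among all genes tested, 12.3% were lower at that unadjusted p, and 2.94% fell and 6.08% rose in calls without the block. With it 4 ZBTB genes fell and 2 rose, ZBTB17 and ZBTB43, 4 ZKSCAN and ZSCAN genes fell and 3 ZFP genes fell, beside 22.2% of all genes that fell and 13.0% that rose. ZFP36, which belongs to another finger class and marks cytokine mRNA for decay, differed by 0.09 ± 0.17 (limma adjusted p = 0.826).

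Further probes were read on the same arrays, 34 for 32 of the members. The sign differed from that of the chosen probe in 5 of the 34. For the 12 such members called with the block, 0 of 14 further probes differed in sign. These 12 were picked by their calls on the same samples, so the shared sign is not independent support.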

How the data were processed

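Per the labels' protocols, total RNA was labelled with biotin and hybridised to Illumina bead arrays. Per the file headers, the deposited table gives each probe's intensity on each array beside its detection p-value and names no normalization. The authors' deposited series matrix holds log2 values; the submitters' processing notes name lumi, whose settings are not given in the sources used here. Whether the authors normalized both kinds of title together is unknown, since their medians differ (5.86 to 5.87 on Allstars and 6.49 to 6.50 on Sample arrays), and so these values served as an alternative.

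Background correction (normexp) and quantile normalization used neqc in limma 3.58.1 (R 4.3.3; offset 16). Genes were tested with lmFit and eBayes (mean-variance trend, two-sided, Benjamini-Hochberg), with treatment alone in the design and the kind of title or replicate number as blocks in alternatives. Genes were named by the platform annotation in GEO; all 200 members matched RefSeq, which changed 0 symbols. The members and lists were chosen with earlier results of these data known. Named were up to 10 members per direction by size among those called with non-overlapping groups, filled from the blocked fit, plus 18 fixed names. Samples with the same number deviated together from their group means (r = 0.53, 0.55 and 0.82 across genes), but so did crossed Allstars numbers (0.49 and 0.48), and the Sample titles carry no replicate number. Alternatives covered blocks, arrays left out, background correction, scaling, the authors' values, filters and probes. The number of arrays limits the precision. No pair of arrays held identical values.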

Additional observations from a re-analysis of the deposited data

How the results depend on the processing

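The direction of the members' median, and of the difference from other genes, was kept in every alternative run; the counts of calls were not. Members that fell and rose numbered 57 and 4 with the kind of title as a block, 61 and 4 with the replicate block, 40 and 4 on the Allstars arrays alone, 54 and 6 with equal medians and that block, 58 and 4 with the authors' deposited log2 values and that block, and 51 and 4 when only genes detected on all 6 arrays were fitted and adjusted, with that block, an alternative chosen after seeing the data (48 and 4 of the same members when all 9078 genes were). All genes that rose and fell numbered 1181 and 2015, 1214 and 2109, 1048 and 1534, 1311 and 1659, 1109 and 2128, and 991 and 1866 in that order. The replicate block and the kind of title gave like counts, and how far the replicate numbers pair the Allstars arrays stays unknown. Without a block, 5 members fell with equal medians, 6 with the authors' values and 3 with no detection filter, where 453 genes were members and 317 lay below 0; all genes that fell numbered 170 both with the authors' values and with no filter.

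The members' median of -0.23 became -0.20 on the Sample arrays alone, -0.14 without background correction, -0.15 with the authors' values with or without the block, -0.18 for detection on all 6 arrays with or without the block, and -0.12 with no filter. The difference from other genes, -0.13, became -0.10, -0.057, -0.060, -0.077 and -0.083 in that order. Leaving out each array in turn with no block gave medians from -0.31 to -0.17, differences from -0.20 to -0.072, 1 to 9 members that fell, 350 to 612 genes that rose and 67 to 353 that fell. With the kind of title as a block the medians ran from -0.23 to -0.20 and the differences from -0.13 to -0.10. Without control replicate 1, control replicate 2, IL-1 replicate 1 and IL-1 replicate 2 in turn, members that fell then numbered 31, 29, 51 and 52, those that rose 4, 5, 4 and 4, all genes that rose 1009, 1024, 1071 and 1078, and all genes that fell 1399, 1333, 1739 and 1713. An array left out without a block makes the kinds of title unequal between groups, so their difference enters those values. The 9 members called without a block were lower in each alternative that held them; 8 kept their call without background correction, 5 with equal medians, 5 with the authors' values, 7 without the eBayes trend and 3 with no filter. The cause of each move was not tested. Of the 200 members, 41 were near background on at least 1 array.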
